A study of Mus musculus with 18 samples.

Results

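Of the 37620 mouse gene IDs counted in these RNA-seq libraries, 36 carry symbols of nuclear subunits of mitochondrial complex I and are described here across 3 tissues and 3 genotypes. They were chosen by name alone, as symbols that start with Nduf followed by a, b, c, s or v and a number, which leaves out assembly factors and pseudogenes, and also Ndufab1, a subunit gene whose symbol does not match. All 36 passed the filter on low counts in every comparison, and the lowest count of any of them in a library ranged from 18 to 164. The mice, C57B6/129 hybrids of 6 to 8 weeks and of both sexes, drank water with 2 mg/ml doxycycline, which induces the histone in this model. Their genotypes were labelled wildtype (WT), K9M or K36M, titled H3K9M and H3K36M in the sample names, the mutants being named for the lysine of histone H3 replaced by methionine. Whether the WT mice carry an unmutated H3 transgene or none was not given in the sources used here. Polyadenylated RNA came from bone marrow cells sorted as Lin-, cKit+ (blood stem and progenitor cells), from intestine and from testes. There were 9 groups with 2 libraries each, 1 per mouse. The same 6 mice gave both intestine and testes, so those 6 were male. Marrow came from 6 further mice, so tissue and mouse cannot be told apart where marrow is compared with the rest. The promoter and cell types that drive the transgene, and the time on doxycycline, were not given in the sources used here.

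Complex I is the entry point of the respiratory chain. It takes electrons from NADH, passes them along a chain of iron-sulfur clusters in its peripheral arm to ubiquinone, and pumps protons through its membrane arm. The core subunits do the chemistry and the pumping, and accessory subunits surround, stabilise and help to assemble them. Enterocytes and developing blood cells use respiration alongside glycolysis, and germ cells change their fuel use as spermatogenesis proceeds, with several germ cell isozymes replacing somatic enzymes. Among the 36, 7 are core subunits of the peripheral arm, 9 are accessory to the peripheral arm and 19 to the membrane arm. The last, Ndufa4, kept its name but is now known as a subunit of complex IV. The core subunits of the membrane arm are encoded by mitochondrial DNA, and the 7 genes for them were listed at 0 counts in every library, as were all 37 mitochondrial genes in the files, so the mitochondrial side of the complex was not measured.

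The sequences before the start sites are shown for 3 members whose K36M values recur below: Ndufb2 and Ndufb3, called lower in each tissue, and the X-linked Ndufb11, called higher in testes. Each line gives 150 bases up to the start in RefSeq on GRCm38.p6, 5′ to 3′ on the strand of the gene, at chr6:39592415-39592564 (plus strand), chr1:58586247-58586396 (plus strand) and chrX:20617620-20617769 (minus strand). Capitals mark a match on either strand to CCAAT (the CCAAT box) or TGACGTC (the cAMP response element).
Ndufb2: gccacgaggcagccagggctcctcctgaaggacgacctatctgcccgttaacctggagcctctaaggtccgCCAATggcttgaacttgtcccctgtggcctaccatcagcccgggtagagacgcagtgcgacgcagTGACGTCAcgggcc
Ndufb3: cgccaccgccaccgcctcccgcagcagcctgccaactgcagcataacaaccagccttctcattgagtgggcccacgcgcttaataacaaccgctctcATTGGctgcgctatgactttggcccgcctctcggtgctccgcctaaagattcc
Ndufb11: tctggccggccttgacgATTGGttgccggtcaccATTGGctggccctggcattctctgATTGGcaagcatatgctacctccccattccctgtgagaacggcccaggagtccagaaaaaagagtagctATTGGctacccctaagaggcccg
Ndufb2 held 1 CCAAT match and 2 overlapping response element matches, Ndufb3 held 1 CCAAT match, and Ndufb11 held 4. In windows of 300 bases (250 before the start and 50 after it), CCAAT was found in 10 of the 32 members with an entry, or 31.2%, against 37.4% of all 32851 promoters. The response element was found in 4 members (12.5%, against 3.21%), and so was CCGGAAG, the core of the ETS factor GABPA (12.5%, against 8.86%). AAGATGG, bound by YY1, was found in 7 members (21.9%, against 6.34%), GGGCGG, the GC box, in 14 (43.8%, against 35.7%), and GCATGCG, in the palindrome of NRF1, in 3 (9.38%, against 3.58%). These are letter matches in a window and not mapped binding sites, and CCAAT was added to the search after the sequences were read.

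Libraries held 13396303 to 21417915 counts assigned to genes. Markers of the labelled tissues were present in each: 5 epithelial genes summed to 9884 to 11007 CPM (counts scaled to library size and TMM factor) in WT intestine, 5 elongating spermatid genes to 9792 to 10019 in WT testes, and 5 progenitor genes to 1739 to 1789 in WT marrow. In intestine of mouse WT.1476 the same spermatid genes reached 215 CPM, against 8.00 in mouse WT.1477. The reads of 14 members may have been divided or dropped, because another transcript shares at least 90% of the bases over at least 50% of their coding sequence, and 13 members overlap exons of another gene. Whether counting used strand was not given in the sources used here, so an overlapping gene cannot be told apart from the member in the shared stretch.

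The 36 genes took their largest share of counts in intestine and their smallest in testes. In WT the share was 0.248% and 0.257% in marrow, 0.425% and 0.380% in intestine, and 0.157% and 0.161% in testes, so the tissues did not overlap. K9M libraries held 0.239% and 0.225% in marrow, 0.374% and 0.380% in intestine and 0.160% and 0.167% in testes. In K36M the marrow libraries lay at 0.256% and 0.249%, the intestine libraries at 0.399% and 0.503%, and the testes libraries at 0.126% and 0.106%. The K36M testes thus lay below every other testes library, while the K36M intestine libraries differed from each other by more than the WT pair did.

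**Figure D1:**
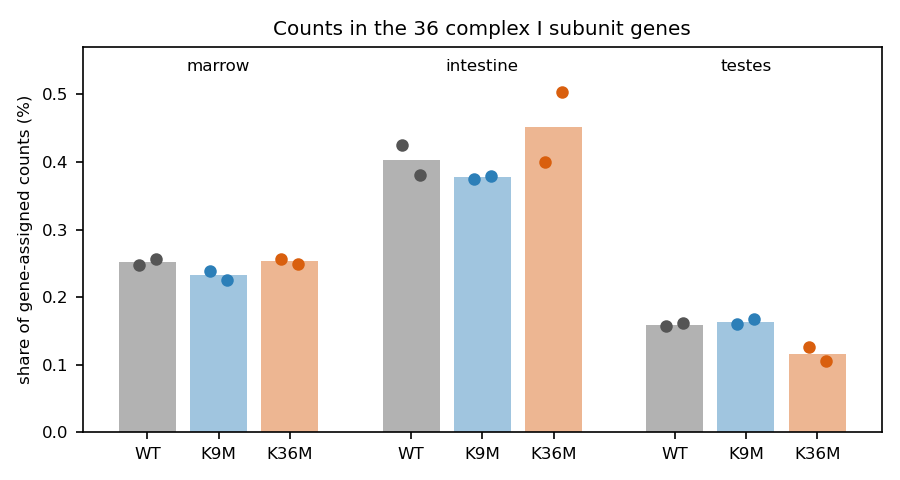
Share of gene-assigned counts (percent, y axis) in the 36 complex I genes, by tissue and genotype; points are libraries and bars are means of 2. Intestine is highest and testes lowest, and the 2 K36M testes libraries, at 0.126% and 0.106%, lie below the other testes.

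Levels per length were compared across WT tissues as CPM on a scale common to all 18 libraries, divided by the length of the principal transcript in kb. The median over members was 55.1 CPM per kb in marrow, 159 in intestine and 37.8 in testes. Ndufa4 led in marrow (206 ± 6.18, SD, n = 2) and intestine (599 ± 130) but stood at 19.1 ± 1.06 in testes, where Ndufa7, a peripheral arm subunit, led with 135 ± 9.03. Ndufb2, a small membrane arm subunit, was lowest in all 3, at 1.87 ± 0.00558 in marrow, 2.65 ± 0.268 in intestine and 0.670 ± 0.219 in testes. In marrow this place depends on its principal transcript of 4371 bases. Not divided by length, and on the scale of marrow alone, Ndufb2 had 10.8 ± 0.0448 CPM in WT and Ndufb4, of 971 bases, 5.96 ± 0.737. In the other tissues, on their own scales and not divided by length, Ndufb2 stayed lowest. It had 8.05 ± 0.130 CPM in WT intestine (Ndufb4 11.5 ± 2.03) and 3.05 ± 0.998 in WT testes (Ndufb4 5.66 ± 0.619). Neighbours in the order of levels were often not separated: of the 35 neighbouring pairs, the replicate ranges overlapped in 21 in marrow, 26 in intestine and 19 in testes. Members farther apart in the order were not compared in this way.

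The core subunits, which work as 1 assembly, did not have equal transcript levels. In WT intestine Ndufv1, which binds NADH and flavin, had 192 ± 22.3 CPM per kb (SD, n = 2). Ndufs1, the large subunit that carries several iron-sulfur clusters, had 92.4 ± 16.1, and Ndufs8, which carries clusters on the way to ubiquinone, 104 ± 16.7. In WT testes Ndufv2, which holds an iron-sulfur cluster next to Ndufv1, stood at 119 ± 1.51, above Ndufv1 at 48.0 ± 0.547, Ndufs8 at 16.4 ± 0.336 and Ndufs7, which holds the last cluster, at 15.1 ± 0.464. In WT marrow Ndufs3 stood at 35.4 ± 3.07 and Ndufv1 at 67.3 ± 4.07.

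**Figure D2:**
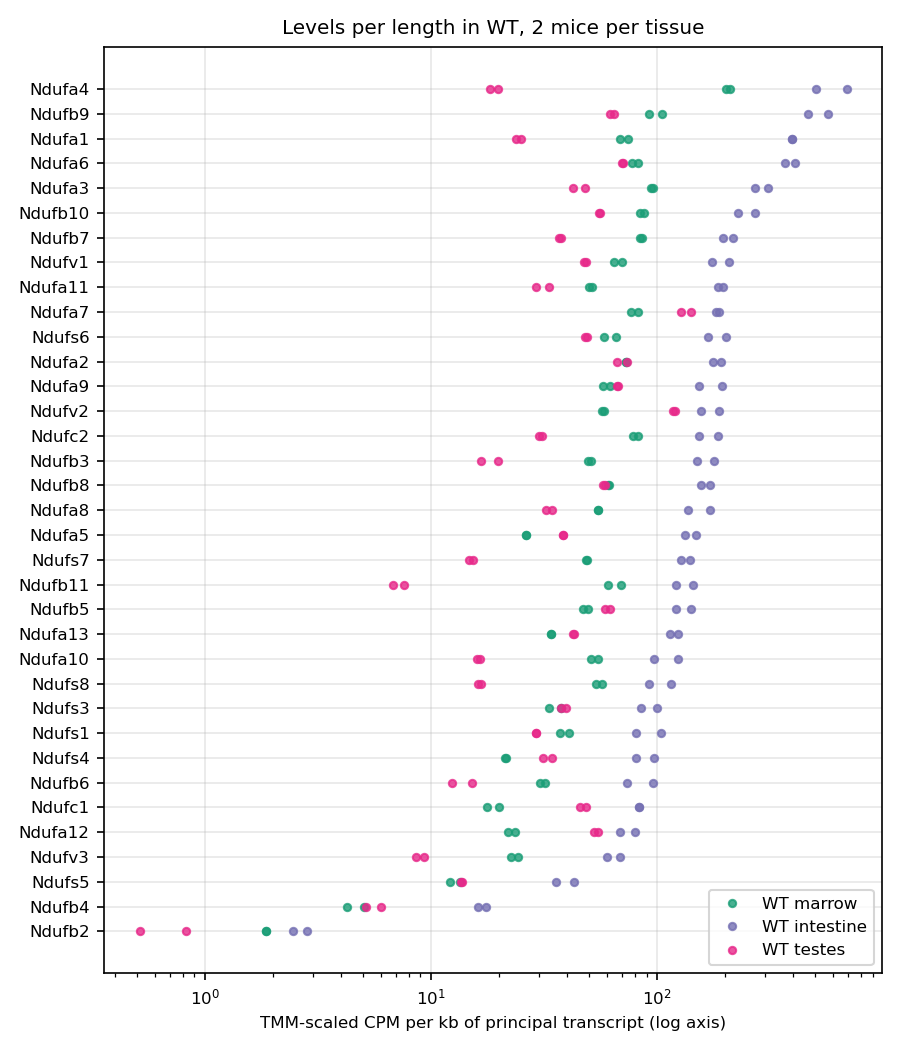
TMM-scaled CPM per kb of principal transcript (log x axis) for 35 of the genes (y axis, ordered by WT intestine); each point is 1 WT library, coloured by tissue. Intestine lies to the right for all genes drawn, and the testes points of Ndufa4 and Ndufb11 lie far to the left of the other tissues.

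With TMM scaling every member was higher in WT intestine than in WT testes (36 of 36 called higher). Calls were made by quasi-likelihood tests in edgeR, adjusted over all genes by Benjamini-Hochberg, at a threshold of 0.05. Over all genes 81.4% were called, 33.2% higher and 48.2% lower, and the median log2 difference was 2.08 over members and -0.72 over all genes tested. The differences of the members ran from Ndufa7 (0.46 ± 0.12, SE), Ndufa12 (0.47 ± 0.18) and Ndufv2 (0.54 ± 0.16) to Ndufb3 (3.17 ± 0.18), Ndufa1 (4.02 ± 0.20), Ndufb11 (4.20 ± 0.16) and Ndufa4 (4.97 ± 0.23). Ndufa1 and Ndufb11 are the X-linked members. The count of 36 moved with the method: DESeq2 and RLE factors each called 33 members higher and library size alone 32, with 0 lower. Against WT intestine, 35 members were lower in WT marrow and none higher (64.1% of all genes called, 34.8% lower and 29.4% higher), led by Ndufa1 (-2.47 ± 0.19), Ndufa5 (-2.42 ± 0.14), Ndufb9 (-2.40 ± 0.16) and Ndufa6 (-2.28 ± 0.14). The member that did not pass was Ndufb2 (-0.50). The size of this difference depends on scaling. With TMM the median log2 difference was -1.53 over members and -0.03 over all genes. RLE factors gave -1.60 and -0.10, with 35 members lower. Library size alone gave -0.61 and 0.45, with 29 lower and 0 higher.

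Marrow and testes did not order the members the same way. Of the 36, 20 were higher and 7 lower in WT marrow than in WT testes (82.1% of all genes called, 33.6% higher and 48.6% lower), but this split depends on scaling: RLE factors gave 14 and 14, DESeq2 16 and 14, and library size alone 24 and 4. Ndufa4 (3.43 ± 0.21), Ndufb11 (3.17 ± 0.16), Ndufs8 (1.75 ± 0.22) and Ndufa10 (1.70 ± 0.17) led in marrow. Ndufc1 (-1.32 ± 0.16), Ndufa12 (-1.25 ± 0.18), Ndufv2 (-1.04 ± 0.16) and Ndufa7 (-0.76 ± 0.12) led in testes. Scaling moved the median log2 difference of all genes between WT intestine and testes from -0.72 with TMM to -1.06 with RLE factors and -1.33 with library size alone.

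In testes of K36M mice, 14 of the 36 genes fell against WT and 3 rose, where 49.5% of all genes were called, 23.8% lower and 25.7% higher. The median log2 difference was -0.33 over members and 0.02 over all genes. In 26 members both K36M libraries lay below both WT libraries (39.3% of all genes did), and in 6 both lay above (39.9%). From here on CPM values are scaled within a tissue. In testes the 2 K36M libraries were not alike, and mouse K36M.1553 lay farther from WT for most members called.

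Among the core subunits 2 of 7 fell. Ndufs1 read 81.1 and 81.0 CPM in WT testes, 80.1 and 82.4 in K9M, and 51.1 and 24.8 in K36M (log2 -1.09 ± 0.30, adjusted p = 0.0254). Both K36M libraries lay below the 4 others. The core subunits that were not called had log2 values between -0.30 ± 0.14 (Ndufv2) and 0.01 ± 0.21 (Ndufs8).

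Of the 9 peripheral arm accessory subunits 4 fell: Ndufs4, which stabilises the NADH-binding end of the arm, Ndufs6, which binds zinc, Ndufa9, which binds NADPH, and Ndufa2. Ndufs4 read 55.6 and 60.6 CPM in WT and 42.0 and 31.5 in K36M. Ndufa7, the most abundant member per length in WT testes, read 70.4 and 77.5 in WT and 74.5 and 75.2 in K36M, so its groups overlapped.

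The membrane arm accessory subunits moved both ways, with 8 of 19 lower and 3 higher. Ndufb6 read 10.4 and 8.54 CPM in WT and 5.10 and 3.45 in K36M (log2 -1.14 ± 0.22, adjusted p = 0.00834). Ndufc2 read 21.4 and 22.1 in WT, 20.9 and 22.3 in K9M, and 11.9 and 9.86 in K36M (-0.997 ± 0.14, adjusted p = 0.00390). Neither gene's K36M libraries reached the WT range. Ndufb5 (-0.81 ± 0.17), Ndufc1 (-0.70 ± 0.13), Ndufb9 and Ndufb10 fell as well, besides Ndufb2 and Ndufb3 below.

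The 3 that rose were Ndufb11, Ndufa13 and Ndufa1, all small membrane arm subunits. Ndufb11 read 6.42 and 7.22 CPM in WT, 6.98 and 7.47 in K9M, and 13.6 and 16.4 in K36M (1.13 ± 0.17, adjusted p = 0.00406). Ndufa1 read 10.9 and 10.4 in WT, 11.4 and 13.4 in K9M, and 14.5 and 17.6 in K36M (0.59 ± 0.16, adjusted p = 0.0238), a call that held in only 7 of 12 alternatives and not with library size alone. Both are X-linked, and of 784 X-linked genes tested in testes 54.2% were higher and 2.55% lower, at a median log2 of 0.77, against 24.9% and 24.8% of 17469 autosomal genes. Even so, Ndufb11 in K36M testes remained far below the 83.3 and 72.8 CPM of WT marrow and the 84.4 and 83.9 of WT intestine, each on its own tissue's scale. Ndufa13, the autosomal gene for GRIM-19, read 55.6 and 55.8 in WT, 58.8 and 60.2 in K9M, and 74.2 and 107 in K36M (0.70 ± 0.18, adjusted p = 0.0193). Its exons overlap Tssk6, a kinase gene of spermatids, by 375 bases, and Tssk6 read 188 and 183 CPM in the WT testes against 398 and 619 in those of K36M; the part of those reads in the Ndufa13 value was not tested.

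**Figure D3:**
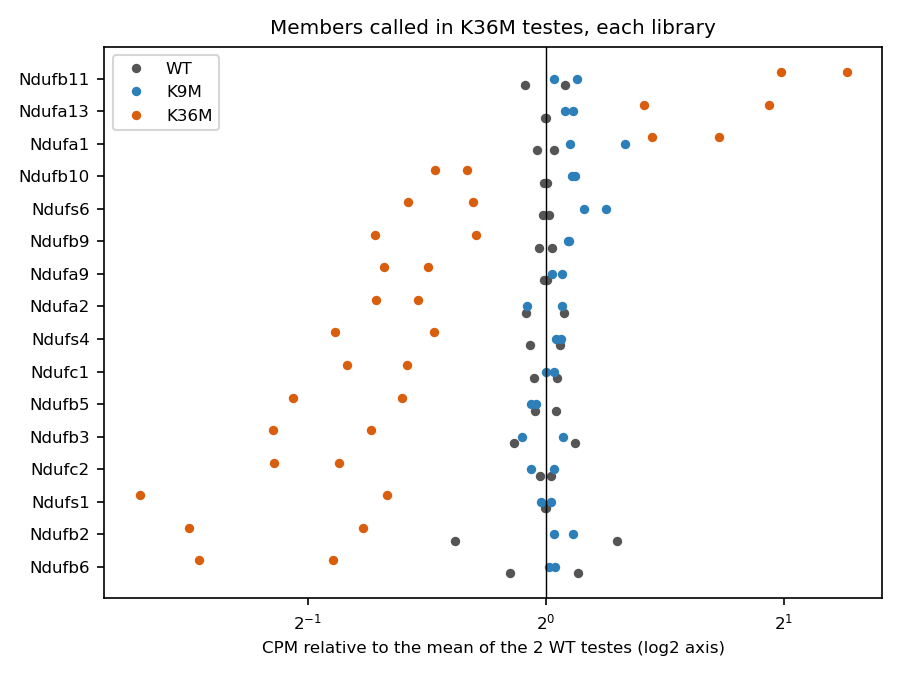
CPM of each testes library relative to the mean of the 2 WT libraries (log2 x axis) for 16 of the 17 genes called between K36M and WT; points are libraries coloured by genotype. K36M points lie left of WT for 13 genes and right for Ndufb11, Ndufa13 and Ndufa1, and K9M points lie near WT.

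Germ cell and somatic markers differed between the same testes. The summed level of 5 spermatocyte genes went from 629 to 633 CPM in WT to 175 to 334 in K36M (5 of 5 lower), and 5 elongating spermatid genes from 9792 to 10019 to 21091 to 31251 (5 of 5 higher). Between these stages, 4 round spermatid genes summed to 822 to 834 in WT and 846 to 866 in K36M (1 of 4 higher), and before them 5 spermatogonia genes went from 64.5 to 66.2 to 117 to 120 (3 of 5 higher). The 5 Sertoli cell genes went from 157 to 164 to 359 to 475 (5 of 5 higher), and the 5 Leydig cell genes from 414 to 513 to 46.0 to 61.9 (5 of 5 lower). No marker of these lists was at 0. The part of these cell types in the subunit values was not tested; in bulk RNA, fewer cells of a type and less RNA per cell cannot be told apart. The counts rest on few libraries: without mouse WT.1476, 2 members were called (Ndufc2 lower, Ndufb11 higher), without mouse WT.1477, 4, without either K9M mouse, 10, and without mouse K36M.1485, 29. All-gene calls moved too, to 2310 of 20026 genes without mouse WT.1476 and 12934 of 20043 without mouse K36M.1485.

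In K36M marrow 4 members rose and 5 fell, or 9 of 36, where 48.0% of all genes were called, 23.5% higher and 24.6% lower. Of the 7 core subunits 2 rose and 0 fell, at a median log2 of 0.18. Ndufs1 read 131 and 144 CPM in WT, 121 and 116 in K9M, and 181 and 197 in K36M (0.46 ± 0.08, adjusted p = 0.00231). Among membrane arm subunits, Ndufa10, a member with a nucleoside kinase fold, went from 136 and 147 to 190 and 196 (0.45 ± 0.07, adjusted p = 0.00145), and Ndufa11 rose by 0.34 ± 0.08. Ndufa3 (-0.43 ± 0.08), Ndufs4 (-0.31 ± 0.08) and Ndufa4 (-0.31 ± 0.07) fell, with Ndufb2 and Ndufb3. K36M marrow also held less of 7 granulocyte-monocyte markers (14192 to 18133 CPM in WT, 3638 to 4821 in K36M, 6 of 7 lower) and more of 7 erythroid markers (503 to 732, then 1652 to 1683, 6 of 7 higher). The 5 progenitor markers, the cells the sort was for, went from 1739 to 1789 to 1056 to 1071 (4 of 5 lower), and 4 dividing cell markers from 2765 to 2778 to 4045 to 4072 (3 of 4 higher). The part of these cells in the subunit values was not tested. With library size alone the split was 4 higher and 8 lower, without mouse K36M.1312 it turned to 3 and 2, and the fit of all 18 libraries called 0 higher and 2 lower.

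In K36M intestine 3 members were called, where 23.3% of all genes were, 11.7% in each direction. Ndufv1 rose, from 221 and 221 CPM in WT to 296 and 378 (0.61 ± 0.17, adjusted p = 0.0492), and Ndufb2 and Ndufb3 fell. The median over members was 0.02. In the same K36M libraries 5 goblet cell markers summed to 499 to 845 CPM (7913 to 9077 in WT) and 5 T and NK cell markers to 29.9 to 39.4 (306 to 319 in WT), all 10 lower. The 5 epithelial markers summed to 7282 to 7460 (9884 to 11007 in WT). For 8 enterocyte markers the sums overlapped, at 45001 to 60458 (47683 to 51766 in WT). The part of these cells in the subunit values was not tested. None of the 3 calls held when either WT mouse or either K9M mouse was left out, and library size alone gave 0 higher and 2 lower. The split turned to 3 higher and 2 lower with DESeq2 and to 3 and 1 without mouse K36M.1485.

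Ndufb2 and Ndufb3 were the members called in all 3 tissues, lower each time, as were 1.37% of the 11754 genes tested in each tissue. Ndufb2 read 10.7 and 10.8 CPM in WT marrow, 11.4 and 12.1 in K9M and 5.60 and 5.21 in K36M (-0.99 ± 0.15, adjusted p = 0.00149). In intestine it read 7.95 and 8.14 in WT, 6.53 and 7.26 in K9M and 3.29 and 4.13 in K36M (-1.11 ± 0.27, adjusted p = 0.0310). In testes it read 2.34 and 3.75 in WT, 3.30 and 3.12 in K9M and 1.08 and 1.79 in K36M (-1.10 ± 0.35, adjusted p = 0.0373). In no tissue did the K36M range reach that of WT or K9M. Its exons overlap the kinase gene Braf by 146 bases; Braf fell in marrow (-0.60 ± 0.07) and had -0.04 ± 0.23 in intestine and 0.03 ± 0.12 in testes.

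Ndufb3 read 51.5 and 49.8 CPM in WT marrow and 43.1 and 35.7 in K36M (-0.36 ± 0.11, adjusted p = 0.0251). It read 87.5 and 86.6 in WT intestine and 56.8 and 58.6 in K36M (-0.59 ± 0.13, adjusted p = 0.0249), and 15.7 and 13.2 in WT testes and 8.69 and 6.53 in K36M (-0.92 ± 0.19, adjusted p = 0.00980). K36M lay below WT each time. Over 12 alternatives the call held for Ndufb2 in 12 in marrow, 7 in intestine and 8 in testes, and for Ndufb3 in 9, 8 and 11; Ndufb11 in testes held in 12 of 12.

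**Figure D4:**
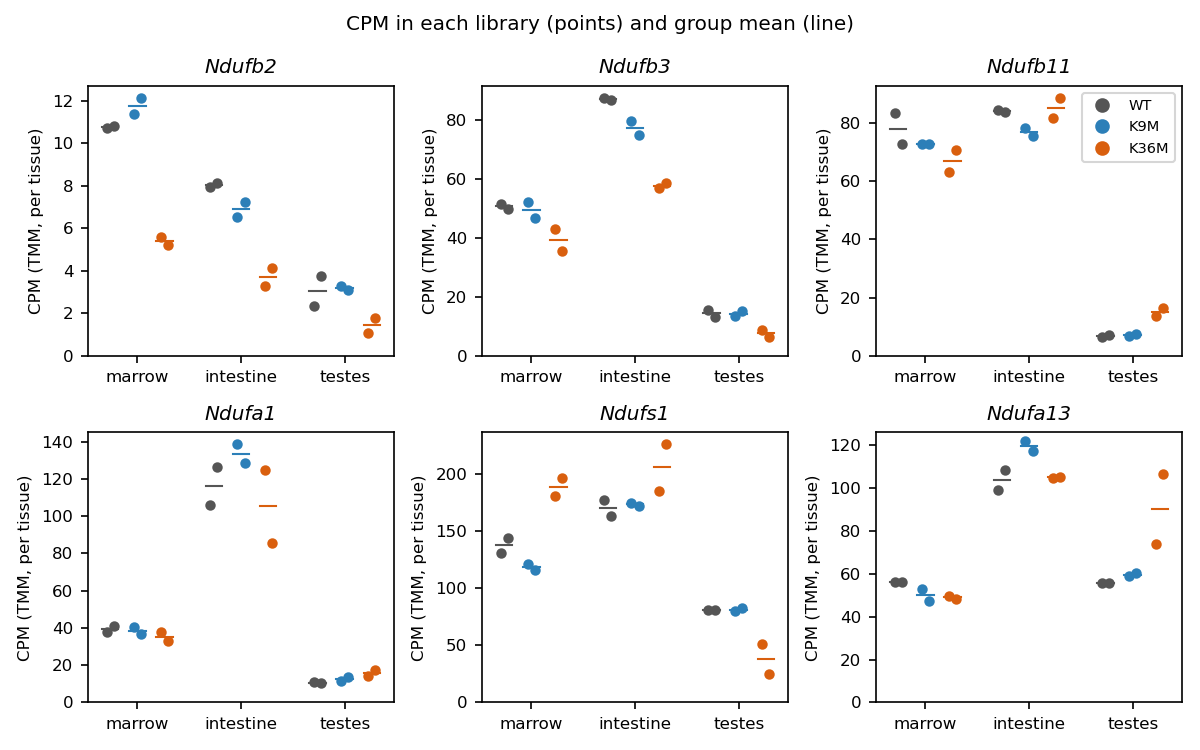
TMM-scaled CPM (y axis, from 0) in every library (points) and group mean (line) for 6 members, by tissue and genotype. Ndufb2 and Ndufb3 are low in K36M of every tissue, Ndufb11 and Ndufa1 are low in all testes and higher in the K36M testes, Ndufs1 is high in K36M marrow and low in K36M testes, and Ndufa13 is high in K36M testes.

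Of the rest, 3 members were called in 2 tissues, 17 in 1 and 14 in none, where 31.4%, 41.3% and 20.2% of all genes were. Ndufs4 fell in marrow and testes, while Ndufs1 rose in marrow and fell in testes. The K36M effect itself was tested between tissues over all 18 libraries. Between marrow and testes it differed for 11 members, 9 with the higher value in marrow and 2 in testes (24.8% of all genes called, 12.7% and 12.1%), led by Ndufs1 (1.61 ± 0.34, adjusted p = 0.00410) and, the other way, Ndufb11 (-1.28 ± 0.21, adjusted p = 0.000851). Between intestine and testes it differed for 10, 7 with the higher value in intestine and 3 in testes (26.0% of all genes, 11.1% and 14.9%), led by Ndufc2 (1.38 ± 0.27, adjusted p = 0.00235) and Ndufs1 (1.28 ± 0.34), against Ndufb11 (-1.19 ± 0.21, adjusted p = 0.00111). With the mouse as a block 3 of these were called, Ndufc2 and Ndufb11 among them, and library size alone gave 14 and 1. The split turned without intestine of mouse WT.1477, to 2 higher and 4 lower in intestine, and without intestine of mouse K36M.1553, to 4 and 5. Between marrow and intestine no member differed in edgeR (17.2% of all genes did), with 2 at an unadjusted p under 0.05 and 1 called by DESeq2.

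**Figure D5:**
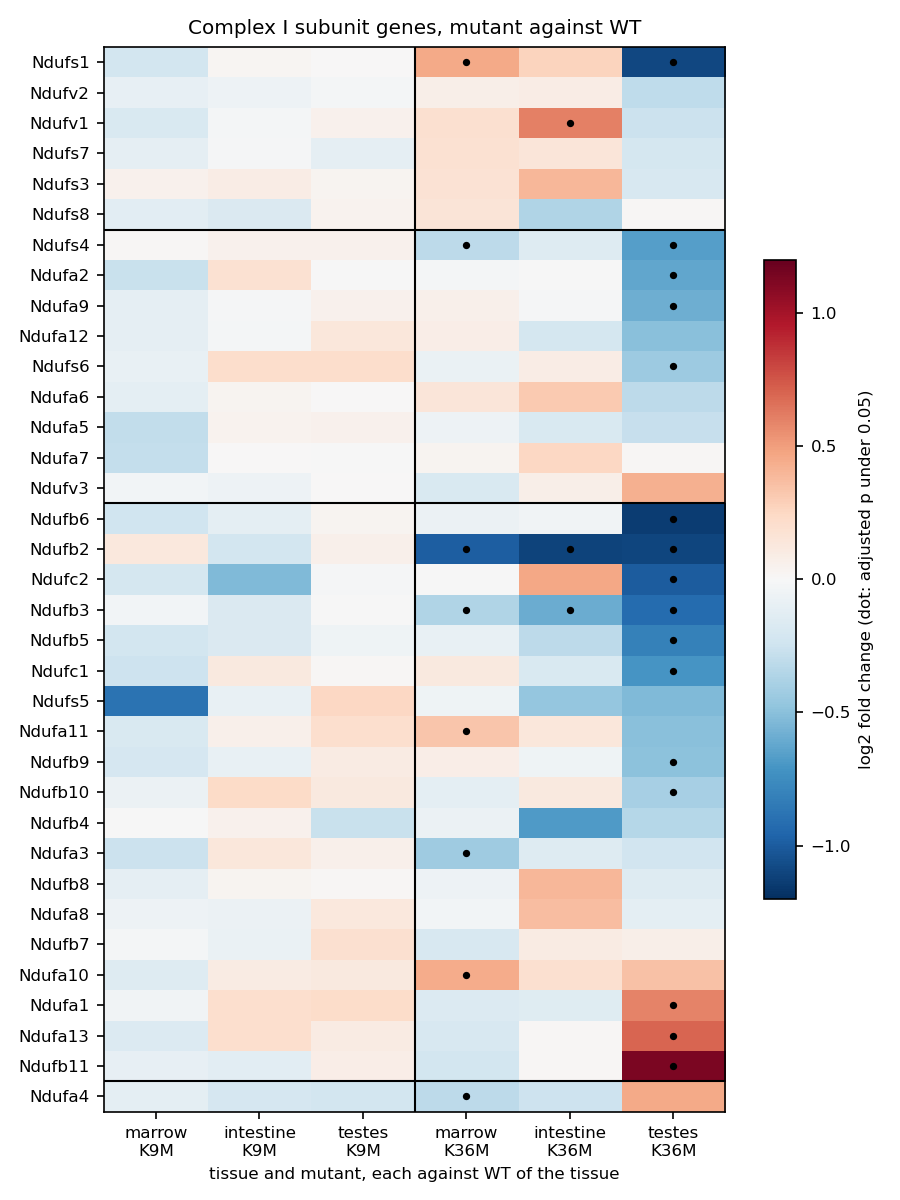
Log2 fold change (colour, from -1.2 to 1.2) of 35 of the genes (rows, in blocks of core, peripheral arm, membrane arm and Ndufa4) for K9M and K36M against WT in each tissue (columns); dots mark an adjusted p under 0.05. No dot stands in the K9M columns, and Ndufb2 and Ndufb3 have dots in all 3 K36M columns.

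In K9M no member passed the test in any tissue. In marrow, where 1.01% of all genes were called, limma-voom called 0 members and DESeq2 1. There 10 members had an unadjusted p under 0.05 in edgeR. The share of all genes at that unadjusted threshold was not counted in any comparison, so the 10 cannot be set against the 1.01%. In intestine (0.211% of all genes) and testes (0.0678%), 0 members had an unadjusted p under 0.05, and DESeq2 and limma-voom called 0 in both. In marrow both K9M libraries lay below both WT libraries in 24 members (22.6% of all genes did) and above in 2 (23.3%), at a median log2 of -0.11. In testes both lay above WT in 16 (22.5%) and below in 1 (18.9%), at a median of 0.05.

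The K9M marrow value farthest from WT was that of Ndufs5, a membrane arm subunit singled out after its values were seen. It read 12.1 and 10.9 CPM in WT, 6.38 and 6.03 in K9M, and 12.0 and 10.1 in K36M (K9M against WT -0.89, adjusted p = 0.0592). BC002163, which shares 99.4% of the bases with the coding sequence of Ndufs5, read 1.13 and 0.782 in WT and 4.66 and 4.21 in K9M, and rose (2.21 ± 0.31, adjusted p = 0.0187). The levels of the pair added up to 13.2 and 11.7 CPM in WT and 11.0 and 10.2 in K9M, a smaller gap than for Ndufs5 alone, with K9M still below WT. The sum was not tested, nor was the part of BC002163 in the Ndufs5 value.

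Set against each other, the mutants differed in 17 members in marrow (3 higher and 14 lower in K9M, 53.8% of all genes called, 27.8% higher and 26.0% lower), 2 in intestine (0 and 2, against 25.1%, 12.9% and 12.2%) and 20 in testes (17 and 3, against 49.2%, 23.9% and 25.4%). Marrow was led by Ndufs5 (-0.84 ± 0.17), Ndufs1 (-0.67 ± 0.08), Ndufa10 (-0.60 ± 0.07) and, the other way, Ndufb2 (1.12 ± 0.15). In intestine Ndufc2 (-0.997 ± 0.24), at 49.8 and 62.0 CPM in K9M and 86.9 and 136 in K36M, and Ndufv1 (-0.63 ± 0.17) were lower in K9M. In testes the values shared the K36M libraries of the comparison above, with Ndufb6 at 1.17 ± 0.22 and Ndufb11 at -1.05 ± 0.17, and here Ndufa4 passed as well (-0.68 ± 0.23). Library size alone gave 5 higher and 11 lower in marrow and 20 and 1 in testes, and without mouse K9M.1516 edgeR called none of the members (16 had an unadjusted p under 0.05) and 0 of all 19661 genes in testes (without mouse K9M.1519, 2 members and 2065 of 19632 genes). In marrow 7 members were called without mouse K9M.1363 and 11 without mouse K9M.1362; in intestine 0 when any 1 of the WT or K9M mice was left out, while the fit of all 18 libraries gave 4 higher and 2 lower there and leaving out mouse K36M.1553 gave 3 and 1.

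Genes of neighbouring steps were counted from lists set beside the members. In K36M testes, where 23.8% of all genes fell and 25.7% rose, 6 of 17 complex I assembly factors fell and 0 rose, among them Ndufaf3 (-1.31 ± 0.25) and Ndufaf7 (-0.99 ± 0.18). All 4 subunits of complex II fell, with Sdhc at -0.72 ± 0.15, as did 5 of 9 of complex III, with Uqcrc2 at -1.18 ± 0.21, while 0 rose in either. Complex IV had 5 of 10 lower and 3 higher, such as Cox5b (-0.58 ± 0.12) and the X-linked Cox7b (0.96 ± 0.19), and ATP synthase 5 of 15 lower and 1 higher. Glycolysis went the other way, with 10 of 12 enzymes higher and 2 lower, for example Pfkl (1.66 ± 0.19) and Tpi1 (1.04 ± 0.13). Of 9 germ cell isozymes, 2 rose, the glycolytic Gapdhs (1.36 ± 0.21) and Pgk2 (0.93 ± 0.17), and 6 fell. Tfam, which packages and transcribes mitochondrial DNA, rose by 1.19 ± 0.21, 1 of 3 higher and 2 lower among 9 regulators of mitochondrial biogenesis. These counts depend on the WT libraries: without mouse WT.1476, 1 assembly factor, 0 complex II genes and 1 complex III gene fell and 5 glycolysis genes rose.

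In K36M marrow, where 23.5% of all genes were higher and 24.6% lower, the citric acid cycle had 6 of 12 enzymes higher and 1 lower, with Cs, citrate synthase, at 0.75 ± 0.06 and Idh3a at 0.66 ± 0.09. Assembly factors had 3 higher and 3 lower of 17, with Ndufaf4 at 0.56 ± 0.07, and ATP synthase 4 higher and 1 lower of 15, with Atp5b at 0.43 ± 0.05. In K36M intestine, with 11.7% of all genes called each way, 2 of 17 assembly factors fell, a share close to that of all genes. They were Timmdc1 (-1.21 ± 0.17) and Dmac1 (-0.96 ± 0.26). There 3 of 15 ATP synthase genes fell, and none of complexes II, III and IV was called by edgeR (1 of complex III by DESeq2). Of the 12 glycolysis enzymes there, 4 rose and 1 fell, with Aldoa at 1.10 ± 0.20.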

How the data were processed

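Raw read counts per gene were deposited by the authors; the submitters' processing notes name STAR, HTSeq and mm9, and versions were not given in the sources used here. The 5 entries that name no gene stayed out of library sizes and tests. Libraries were made from polyadenylated RNA with a SMARTer kit, per the labels' protocols. Symbols and transcript lengths came from GENCODE M21 (GRCm38) by gene ID, which named 32897 of 37620 IDs. Fits used R 4.3.3 and edgeR 4.0.16 (TMM, filterByExpr, robust quasi-likelihood, Benjamini-Hochberg over all genes): 6 libraries per tissue for genotypes, 18 for WT tissues and for the K36M effect between tissues. Alternatives were DESeq2 1.42.0, limma-voom (limma 3.58.1), other scaling, no filter, all 18 libraries, each library left out, and the mouse as a block. Intestine and testes are paired by the mice named in the labels; deviations from group means correlated at 0.0284 (WT), 0.0613 (K9M) and -0.0108 (K36M). Tests were run on simulated counts first. Near copies were sought with BLAST 2.17.0+. Named genes were, in each genotype comparison, up to 6 called members each way with the largest change, and 4 in the others; core subunits, the highest and lowest levels, and up to 2 called genes of other lists. Members and lists were chosen with earlier results of these data known. Some values of the members are counted but not reported here by gene.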

Additional observations from a re-analysis of the deposited data

Results flagged for a closer look

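The K36M effect against WT differed between tissues, by edgeR's interaction test over 18 libraries, for members that include the following. As log2 values of the effect in intestine minus that in testes, these were Ndufc2 (1.38), Ndufs1 (1.28), Ndufb6 (1.02), Ndufv1 (0.78), Ndufa2 (0.54) and Ndufb8 (0.48), and, with the higher value in testes, Ndufb11 (-1.19), Ndufa1 (-0.79) and Ndufa13 (-0.75). As marrow minus testes they were Ndufs1 (1.61), Ndufb6 (1.14), Ndufc2 (1.06), Ndufa11 (0.91), Ndufc1 (0.89), Ndufb5 (0.79), Ndufa2 (0.66) and Ndufb9 (0.64), and, with the higher value in testes, Ndufb11 (-1.28) and Ndufa13 (-0.82). Both sets share the testes libraries, so they are not independent of each other. The test did not use the pairing of intestine and testes by mouse. With the mouse as a block, 3 members were called between these tissues. The same 12 libraries with no mouse term gave 6. Over 14 alternatives, the call between intestine and testes held in 14 for Ndufc2 and Ndufb11 and in 12 for Ndufs1. It held in 9 for Ndufb6 and Ndufa13, and in 6 for Ndufa1. Ndufv1, Ndufa2 and Ndufb8 were not followed in this way.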

How the results depend on the processing

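Counts of members called are given here where an alternative moved them by over 1.5 times. Among the called members with the largest changes (up to 6 each way in a genotype comparison, 4 in the others), no value changed sign. Smaller called values, such as those of Ndufa7, Ndufa12 and Ndufv2 between WT intestine and testes, were not followed in this way. The split of calls turned for the K36M effect between intestine and testes (7 higher and 3 lower) without intestine of mouse WT.1477 or of mouse K36M.1553. Between the mutants in intestine the split turned with all 18 libraries (0 and 2, then 4 and 2) and without mouse K36M.1553. It also turned in K36M intestine (1 and 2, then 3 and 2 with DESeq2 and 3 and 1 without mouse K36M.1485) and K36M marrow (4 and 5, then 3 and 2 without mouse K36M.1312). DESeq2 called 1 member in K9M marrow (as did the test with no filter), 5 in K36M intestine, 4 between the mutants in intestine, and 17, 1 and 19 for the K36M effect between intestine and testes, marrow and intestine, and marrow and testes. Fitting all 18 libraries called 2 in K36M marrow, 7 between the mutants in marrow, 5 in K36M intestine and 6 between the mutants in intestine. Library size alone called 1 for the K36M effect between marrow and intestine. With the replicate block (the mouse), the K36M effect between intestine and testes was called in 3 members and WT intestine against testes in 36; the same 12 libraries with no mouse term, a setting added once the data had been seen, gave 6 for the K36M effect. The causes were not tested. Leaving out each library gave 5 to 10 calls in K36M marrow, 7 to 18 between the mutants in marrow, 0 to 4 in K36M intestine and between the mutants in intestine, 2 to 29 in K36M testes and 0 to 30 between the mutants in testes. It gave 35 to 36, 35 and 24 to 25 for WT intestine against testes, marrow against intestine and marrow against testes, and 5 to 15, 0 to 4 and 4 to 19 for the K36M effect between intestine and testes, marrow and intestine, and marrow and testes. K9M against WT stayed at 0 in each tissue. Where a group kept 1 library, its spread was taken from the rest. With 2 libraries a group, each p-value sets a difference against a spread pooled over the groups of its fit and drawing on other genes. The fits over 18 libraries took intestine and testes of 1 mouse as if from separate mice.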

Other observations

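Some genes that share exons or sequence with members had values of their own in K36M testes. Vmac, which overlaps Ndufa11, read 5.16 and 5.11 CPM in WT and 9.35 and 10.5 in K36M, and rose by 0.95 ± 0.16. Ndufa11 read 19.0 and 16.6 in WT and 14.6 and 10.4 in K36M and missed the threshold (-0.50 ± 0.19, adjusted p = 0.0618 in edgeR). Ndufa11b, which shares 94.8% of the bases with the coding sequence of Ndufa11, went from 2.58 and 1.92 CPM to 7.02 and 4.56. Its part in the Ndufa11 value was not tested. Mrpl47, a mitochondrial ribosome gene that overlaps Ndufb5, rose by 0.34 as Ndufb5 fell. Rbm10, which overlaps Ndufb11, had 0.36 ± 0.14 in testes and missed the threshold (adjusted p = 0.0726), and it fell by 0.84 ± 0.15 in K36M intestine, where Ndufb11 had 0.02 ± 0.14. Gm12251, a near copy of Ndufs3, rose by 1.86 ± 0.58 in K36M testes, where Ndufs3 had -0.19 ± 0.15. That rise rests on very low levels: Gm12251 read 0.360 and 0.141 CPM in WT testes, 0.574 and 0.588 in K9M, and 0.600 and 1.17 in K36M.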
